A study of Mus musculus with 12 samples.

Results

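Krt10, Krt17 and Itgb4 are keratinocyte genes, and their RNA was followed here in melanocyte cultures of mouse skin. The 3 genes were set by name, and each was found through the number in its probe's identifier, which is the NCBI gene number. Each gene had 1 probe, so 3 probes of the 46628 on the array, or 3 of 8102 genes that could be named in this way, are described. Gene names could be given to 21.0% of all probes.

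The study hybridised RNA of primary melanocytes to Illumina Mouse-6 BeadChips, 12 arrays in 6 groups of 2. The study crossed mice with floxed Atf2 exons to mice that carry a 4-OHT-inducible Cre recombinase under the tyrosinase promoter, which is active in melanocytes, so that 4-OHT (4-hydroxytamoxifen) leaves an ATF2 without its DNA binding part. The ATF2 mutant cultures with 4-OHT were labelled ATF2-/- and also received doxycycline. Further cultures with the genotype label ATF2-/- received doxycycline only and should, by this design, still carry the floxed exons, and they are called ATF2 mutant without 4-OHT. The WT cultures had ATF2+/+ as their genotype and, by their labels, doxycycline without 4-OHT. Doxycycline induces mutant NRAS, and the study's lines lack Ink4a, so all groups share both. The strain label of every array is FVB/129/OlaHsd/C57Bl/6, and each kind of culture was kept for 12 h at 1% O2 (hypoxia) or in normoxia. Melanocytes were enriched from the skin of newborn pups, with the epidermis discarded and geneticin used against fibroblasts, and the study describes the cultures as free of keratinocytes and fibroblasts by immunostaining. Nothing in the labels tells if both arrays of a group came from separate animals or cultures, and the methods name biological and technical replicates without assigning arrays to them, so p-values measure only the spread between these arrays.

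Keratins are the intermediate filament proteins of epithelial cells and form filaments as pairs of a type I and a type II chain. Integrin beta4, the product of Itgb4, pairs with integrin alpha6 in the hemidesmosome, the junction that fixes basal keratinocytes to the basement membrane and to which keratin filaments attach through plectin. In the epidermis, melanocytes sit among basal keratinocytes but are anchored without hemidesmosomes.

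All 3 genes lie on mouse chromosome 11 (GRCm38.p6, RefSeq). Krt10 (gene 16661) spans 99385254 to 99397449, Krt17 (gene 16667) spans 100256215 to 100261029 and Itgb4 (gene 192897) spans 115974725 to 116008412. The place of a probe within its transcript is not given in the sources used here, and the Krt17 probe may share sequence with near-identical type I keratins such as Krt14 and Krt16.

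The promoter of Krt10 is shown because hypoxia is a factor of the design. RefSeq's promoter table (GRCm38.p6) matched 1 of the 3 genes, at chr11:99389365-99389614 on the minus strand. This window lies inside the span of Krt10 given above, so its transcript start is not the outer end of the gene. The 250 bases before that start read as follows, with motif matches in capitals.
Krt10 promoter: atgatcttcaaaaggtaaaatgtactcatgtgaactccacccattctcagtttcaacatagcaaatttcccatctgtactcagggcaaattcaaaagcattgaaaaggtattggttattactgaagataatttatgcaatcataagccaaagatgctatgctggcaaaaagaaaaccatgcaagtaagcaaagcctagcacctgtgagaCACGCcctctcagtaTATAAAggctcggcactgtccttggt
The capitals mark a core of the hypoxia response element (ACGTG or GCGTG on either strand, here CACGC as the reverse complement) that starts 41 bases before the transcript start, and a TATA box (TATAAA on either strand) 26 bases before it. Such a core was present in 38.6% of 32851 mouse promoters of this length and a TATA box in 12.4%. The cyclic AMP response element (TGACGTCA), the site family bound by ATF2, and the AP-1 element (TGACTCA) had 0 matches in this window, and they were present in 1.55% and 4.46% of promoters. A match describes letters only.

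Values are mean bead intensities per probe in arbitrary units, and a probe counts as above background on an array where its detection p-value, taken against the array's negative control beads, is under 0.01. The median intensity per array lay between 29.0 and 40.1, and between 10878 and 13033 probes were above background. Arrays with replicate number 1 share a slide, as do arrays with number 2. Dct, an enzyme of melanin synthesis that marks melanocytes, gave 10405 to 17401 units, with all 12 arrays above background. The only named Atf2 probe was above background on 0 arrays (27.9 to 49.6 units), so the genotype could not be checked. Xist, the RNA of the inactive X chromosome, exceeded background in 8 of 8 mutant but 0 of 4 WT arrays, and the Y-linked Eif2s3y in 0 of 8 mutant but 4 of 4 WT arrays. Genotype and sex of the cultures can therefore not be told apart in any comparison of ATF2 mutant with WT cultures.

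The arrays of 1 group stand apart from the other mutant cultures. Of 17 skeletal muscle markers 4 could be named (Chrna1, Chrng, Myh7 and Eno3). Their summed normalised intensity was 6108 to 7695 on the 4 arrays of ATF2 mutant cultures with 4-OHT, 301 on both arrays of the ATF2 mutant without 4-OHT in hypoxia, 7117 and 7338 on the arrays of the same cultures in normoxia, and 186 to 208 on the 4 WT arrays. Chrna1, a subunit of the muscle acetylcholine receptor, had 26.3 and 29.4 units in the ATF2 mutant without 4-OHT in hypoxia, against 2305 and 3560 units in normoxia. The part of the muscle markers in the results below was not tested, nor was whether these arrays hold the culture that their labels name, and all results for the ATF2 mutant without 4-OHT in hypoxia are given under that limit. Comparisons that do not need the ATF2 mutant without 4-OHT in hypoxia were repeated without it.

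**Figure D1:**
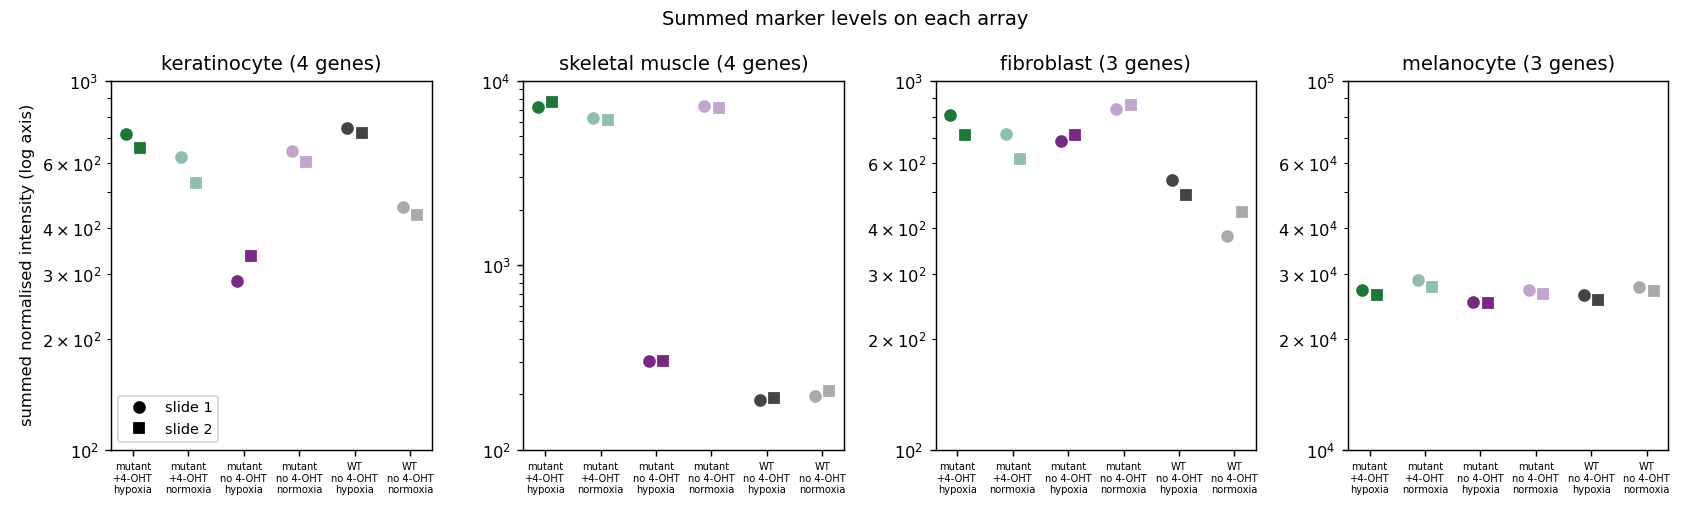
Summed normalised intensity of named marker genes above background (y axis, log scale, arbitrary units) on each array, by culture group, for keratinocyte, skeletal muscle, fibroblast and melanocyte lists, with Krt10, Krt17 and Itgb4 among the 4 keratinocyte markers; circles are slide 1 and squares slide 2. The ATF2 mutant without 4-OHT in hypoxia has 301 units of muscle markers on both arrays, against at least 6108 on the other mutant arrays. The sum of the 3 melanocyte markers (Dct, Gpnmb and Trpm1) lies between 24952 and 28876 on all arrays. Trpm1 alone ranges from 215 to 2742 units of intensity, which the sum does not show.

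Keratinocyte markers were measured in part only. Of 20 keratinocyte markers 8 could be named, and 4 of these were above background on at least 1 array, namely Krt10, Krt17, Itgb4 and Itga6. Krt15, Krt6a, Sfn and Dsg3 were above background on 0 of 12 arrays, and the highest intensity of any of their probes was 52.9 units. Of 22 named keratin genes with 27 probes, Krt10, Krt17 and Krt8 had a probe above background, and the 24 probes that were never above background reached at most 57.4 units. Krt8, a type II keratin of simple epithelia, was above background on the 2 WT arrays in hypoxia only. The type II partners Krt1 and Krt5 were not analysed here.

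Krt10, the type I keratin of suprabasal keratinocytes that leave the basal layer, was dim and varied little. It was above background on all 12 arrays and lay between the 76.1 and the 82.4 percentile of the probes of its array. In ATF2 mutant cultures with 4-OHT its intensity was 85.3 and 102 units in hypoxia and 59.1 and 94.4 units in normoxia. In ATF2 mutant cultures without 4-OHT it was 65.0 and 89.4 units in hypoxia and 74.4 and 101 units in normoxia, and in WT cultures it was 91.0 and 104 units in hypoxia and 84.3 and 113 units in normoxia. The array on slide 2 was the brighter of each group, and the lowest value was that of replicate 1 of the ATF2 mutant with 4-OHT in normoxia. Slide 2 was also the brighter by the median over all probes, at 36.5 to 40.1 units against 29.0 to 32.7 on slide 1.

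Krt17, the type I keratin of hair follicles and other appendages that is induced in injured epidermis, varied most between groups. It was above background on 11 of 12 arrays. Its intensity was 224 and 250 units in hypoxia and 144 and 173 units in normoxia in ATF2 mutant cultures with 4-OHT. In ATF2 mutant cultures without 4-OHT it was 47.5 and 60.7 units in hypoxia, of which only the value of 60.7 was above background, and 127 and 167 units in normoxia. The WT cultures gave 438 and 494 units in hypoxia and 205 and 216 units in normoxia. The WT arrays in hypoxia were the highest of all, and the arrays of the ATF2 mutant without 4-OHT in hypoxia were the lowest, with no overlap with any other group.

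Itgb4, the beta chain of the hemidesmosomal integrin, was above background on 10 of 12 arrays. Its intensity was 248 and 290 units in hypoxia and 264 and 194 units in normoxia in ATF2 mutant cultures with 4-OHT. In ATF2 mutant cultures without 4-OHT it was 43.0 and 55.9 units in hypoxia, neither above background, and 214 and 273 units in normoxia. WT cultures gave 119 and 174 units in hypoxia and 73.7 and 110 units in normoxia. The 6 mutant arrays other than those of the ATF2 mutant without 4-OHT in hypoxia were all brighter than the 4 WT arrays, which in turn were all brighter than those in which Itgb4 was not above background.

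**Figure D2:**
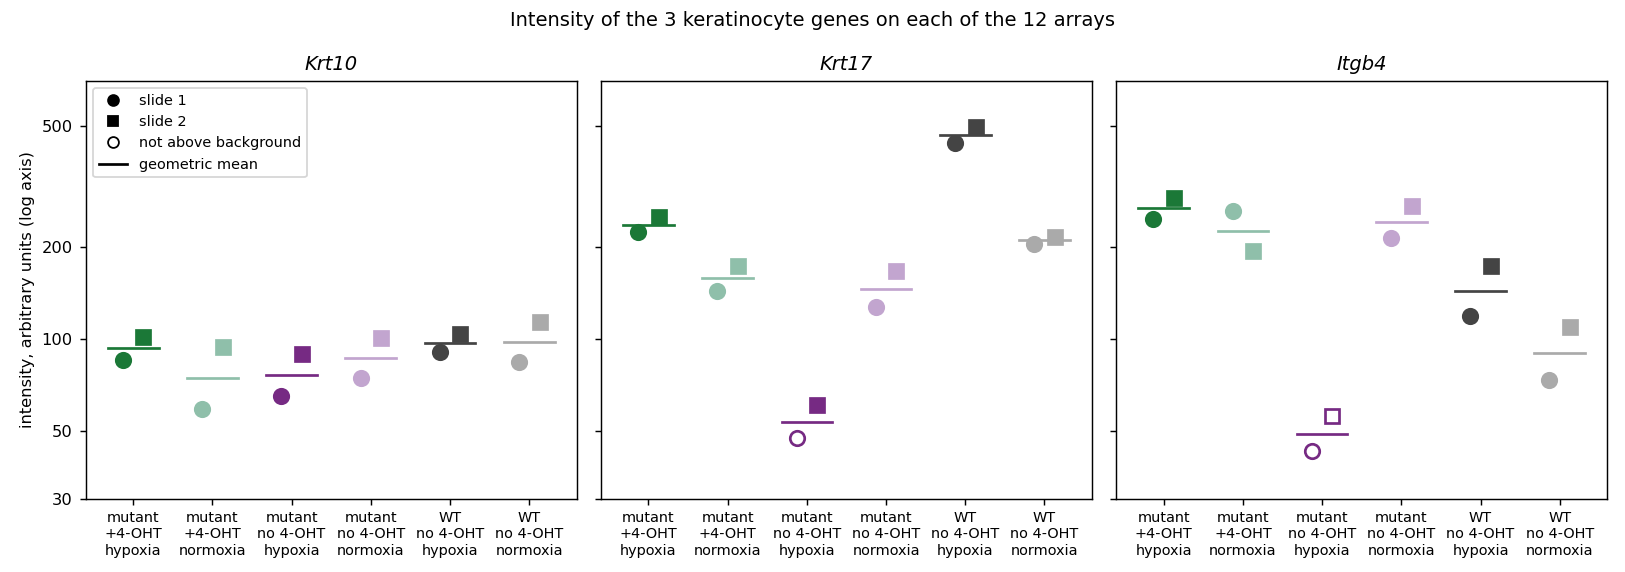
Intensity (y axis, log scale, arbitrary units) of Krt10, Krt17 and Itgb4 on each of the 12 arrays by culture group; circles are slide 1, squares slide 2, open symbols are not above background and bars are geometric means. Krt10 stays between 59.1 and 113 units, while Krt17 and Itgb4 have their lowest arrays, at 43.0 to 60.7 units, in the ATF2 mutant without 4-OHT in hypoxia.

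For tests, intensities were corrected for background, quantile normalised and taken as log2, so that levels and differences below are on this log2 scale. The groups were compared by limma in 1 fit to all 12 arrays, with p-values adjusted over 14906 probes by the Benjamini-Hochberg method and a threshold of 0.05. Ordered by its level, Krt17 averaged 8.75 ± 0.13 in WT hypoxia, 7.75 ± 0.22 in the ATF2 mutant with 4-OHT in hypoxia, 7.73 ± 0.27 in WT normoxia, 7.16 ± 0.03 in the ATF2 mutant with 4-OHT in normoxia, 7.00 ± 0.20 in the ATF2 mutant without 4-OHT in normoxia and 5.32 ± 0.00 in the same cultures in hypoxia (SD, n = 2 each). Neighbours in this order did not differ beyond the 95% interval of a difference (± 0.42) for the ATF2 mutant with 4-OHT in hypoxia against WT in normoxia and for the 2 kinds of mutant culture in normoxia. Itgb4 averaged 7.94 ± 0.16 in the ATF2 mutant with 4-OHT in hypoxia, 7.81 ± 0.23 in the ATF2 mutant without 4-OHT in normoxia and 7.72 ± 0.51 in the ATF2 mutant with 4-OHT in normoxia, and these did not differ beyond their interval (± 0.53). It averaged 6.96 ± 0.17 in WT hypoxia, 6.34 ± 0.16 in WT normoxia and 5.12 ± 0.04 in the ATF2 mutant without 4-OHT in hypoxia, each step being larger than the interval. The intervals are not adjusted for the number of comparisons, and the groups were ordered by these same levels. The step of Itgb4 between the WT groups did not pass the adjusted test (limma, adjusted p = 0.12). Its lowest level was not above background on either array. The 6 group means of Krt10 lay between 5.80 and 6.49, and no neighbours differed beyond ± 0.45.

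ATF2 mutant cultures with 4-OHT were first compared with WT cultures. These groups differ in 4-OHT as well as in genotype and sex, which cannot be told apart. In normoxia, 2 of the 3 genes passed the test, where 22.8% of all probes did. Itgb4 rose in the ATF2 mutant with 4-OHT relative to WT (2.62-fold, log2 fold change 1.39 ± 0.24 SE, adjusted p = 0.0024), by 1.86 within slide 1 and 0.92 within slide 2. Of 7 named fibroblast markers, Col1a1, Col1a2, Col3a1 and Postn were above background on 0 of 12 arrays. The sum of the other 3 (Col5a1, Col6a1 and Dcn) was higher there, at 614 and 718 units in the ATF2 mutant with 4-OHT and 379 and 440 units in WT, and its part in the result was not tested. Krt10 was lower, with a log2 fold change of -0.69 ± 0.20 (SE) and an adjusted p of 0.035. The call of Krt10 rested on replicate 1 of the ATF2 mutant with 4-OHT, without which the log2 fold change was -0.42 (adjusted p = 0.16), and it was also lost without either array of WT in normoxia (log2 fold change -0.70 without replicate 1 and -0.67 without replicate 2), without either array of WT in hypoxia (adjusted p = 0.054) and without either or both arrays of the ATF2 mutant without 4-OHT in hypoxia (adjusted p = 0.058). Krt17 had a log2 fold change of -0.57 ± 0.19 (SE) and an adjusted p of 0.055, and did not pass the test. In a fit to the 4 compared arrays neither call held (adjusted p = 0.054 for Itgb4 and 0.15 for Krt10), and that of Krt10 was also lost without a filter on detection (adjusted p = 0.079) and with the detection p-values as deposited, which widens the inferred background (log2 fold change -0.12, adjusted p = 0.050). With the slide as a replicate block the adjusted p of Krt17 was 0.026.

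In hypoxia, the same comparison had 2 of the 3 genes past the threshold, against 12.7% of all probes. Krt17 was lower in the ATF2 mutant with 4-OHT, at a log2 fold change of -0.99 ± 0.19 (SE, adjusted p = 0.0061), -0.93 within slide 1 and -1.06 within slide 2. Itgb4 was higher (1.96-fold, log2 fold change 0.97 ± 0.24 SE, adjusted p = 0.022), by 1.21 within slide 1 and 0.74 within slide 2. Krt10 had a log2 fold change of -0.11 with a 95% interval from -0.57 to 0.34. The call of Krt17 was lost without replicate 1 of WT in hypoxia (-0.90, adjusted p = 0.066), and that of Itgb4 without replicate 1 of the ATF2 mutant with 4-OHT in hypoxia (0.86, adjusted p = 0.12), replicate 1 of WT in hypoxia (0.85, adjusted p = 0.16) or replicate 2 of WT in hypoxia (1.09, adjusted p = 0.0707). Itgb4 also lost its call with the detection p-values as deposited (0.54, adjusted p = 0.089) and without a filter on detection (adjusted p = 0.076).

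Mutant cultures without 4-OHT differed from WT too. In normoxia 2 of the 3 genes passed the test, against 14.3% of all probes. Itgb4 was higher in the ATF2 mutant without 4-OHT than in WT (2.77-fold, log2 fold change 1.47 ± 0.24 SE, adjusted p = 0.0020), by 1.75 within slide 1 and 1.20 within slide 2, which is close to its difference in the cultures with 4-OHT, with which it shares the WT arrays. Krt17 was lower, with a log2 fold change of -0.73 ± 0.19 (SE, adjusted p = 0.028). This call of Krt17 was lost without replicate 1 (-0.87, adjusted p = 0.052) or replicate 2 (-0.58, adjusted p = 0.15) of the ATF2 mutant without 4-OHT in normoxia, without replicate 1 of WT in normoxia (-0.54, adjusted p = 0.25) and without either or both arrays of the ATF2 mutant without 4-OHT in hypoxia (adjusted p = 0.053). With the detection p-values as deposited neither Itgb4 (0.62, adjusted p = 0.051) nor Krt17 (-0.38, adjusted p = 0.090) passed, and without a filter on detection Krt17 did not (adjusted p = 0.053). For Krt10 the log2 fold change was -0.36 (adjusted p = 0.28).

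In hypoxia the ATF2 mutant without 4-OHT had less RNA of Krt17 and Itgb4 than WT, and 24.8% of all probes passed the test. Krt17 was 10.8-fold lower in the ATF2 mutant without 4-OHT (log2 fold change -3.43 ± 0.19 SE, adjusted p = 2.1e-06), with -3.53 within slide 1 and -3.33 within slide 2. It was above background on 1 of 2 arrays of that group, so the fold rests in part on a level not above background. Itgb4 had a log2 fold change of -1.84 ± 0.24 (SE, adjusted p = 0.00037). Since Itgb4 was not above background in the mutant arrays, its difference is a bound, at least 2.93-fold lower than in WT, computed on each array against the lowest level of a probe above background. With the detection p-values as deposited Itgb4 did not pass (-0.34, adjusted p = 0.19). For Krt10 the log2 fold change was -0.37 (adjusted p = 0.22), and it passed in a fit to the 4 compared arrays (adjusted p = 0.040). In these bulk cultures, fewer cells that express a gene and less RNA per cell cannot be told apart.

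The effect of 4-OHT was read from mutant cultures with and without it. By the labels no WT culture had 4-OHT, so the drug itself and the loss of the floxed exons cannot be told apart. In normoxia 0 of the 3 genes passed the test by limma, 0 had an unadjusted p under 0.05, and 5.98% of all probes passed. The log2 fold change was -0.32 for Krt10 (95% interval -0.78 to 0.13), 0.15 for Krt17 (-0.27 to 0.58) and -0.08 for Itgb4 (-0.61 to 0.44). Arrays of the cultures with and without 4-OHT overlapped for each of the 3 genes.

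In hypoxia Krt17 and Itgb4 rose with 4-OHT relative to mutant cultures without it, where 28.6% of all probes passed the test. Krt17 was 5.41-fold higher (log2 fold change 2.44 ± 0.19 SE, adjusted p = 8.1e-06), by 2.60 within slide 1 and 2.28 within slide 2, against a group in which it was above background on 1 of 2 arrays. Itgb4 had a log2 fold change of 2.81 ± 0.24 (SE, adjusted p = 1.4e-05), by 2.95 within slide 1 and 2.67 within slide 2, and was at least 5.75-fold higher. That of Krt10 was 0.26 (95% interval -0.19 to 0.71). Both genes that passed are those whose lowest arrays belong to the ATF2 mutant without 4-OHT in hypoxia. In that group 3 of 4 named muscle markers were not above background either. The same 3 markers were not above background on any WT array, where Krt17 and Itgb4 were.

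**Figure D3:**
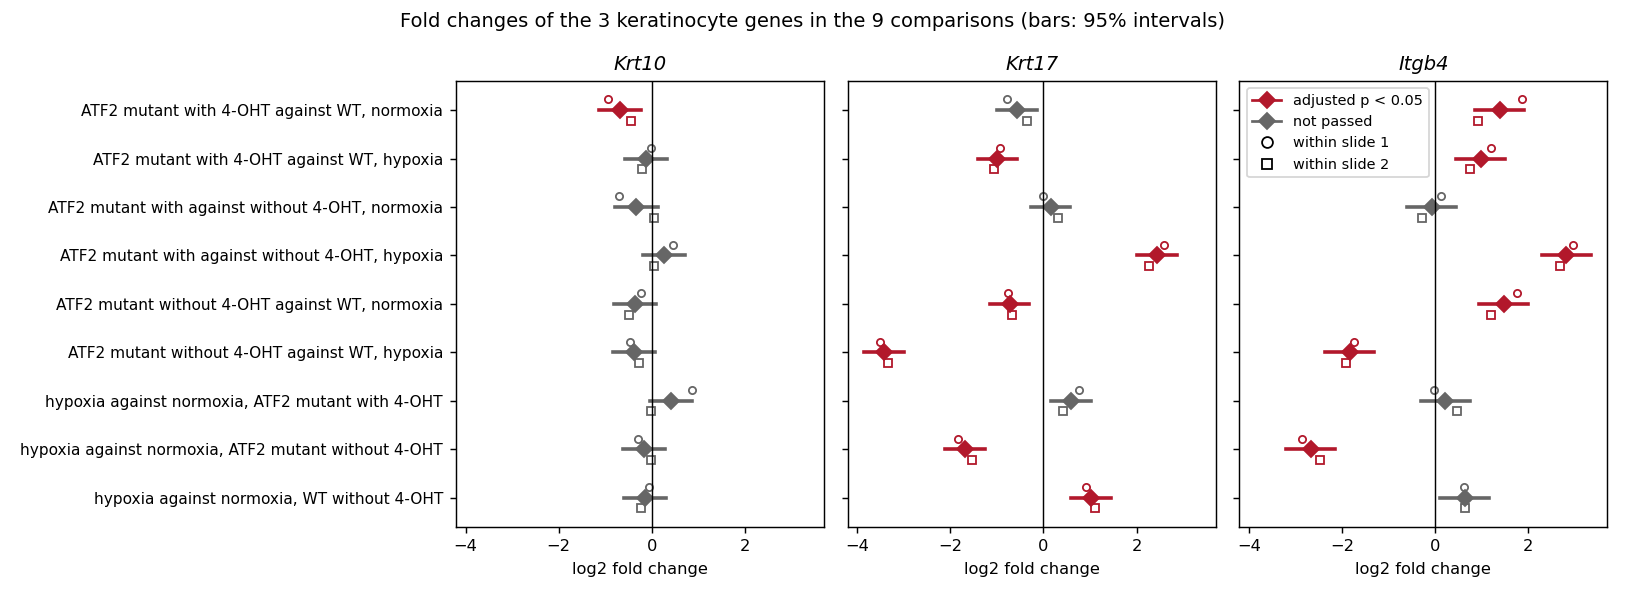
Log2 fold changes (x axis) of Krt10, Krt17 and Itgb4 in the 9 comparisons (rows), as diamonds with 95% intervals, with the value within slide 1 as a circle and within slide 2 as a square; red marks an adjusted p under 0.05. Krt17 and Itgb4 pass in all 3 comparisons that use the ATF2 mutant without 4-OHT in hypoxia, and Krt10 passes only in the ATF2 mutant with 4-OHT against WT in normoxia.

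The response to 12 h at 1% O2 was taken within each kind of culture. In the ATF2 mutant with 4-OHT, 0 of the 3 genes passed the test by limma, as did 0.0268% of all probes (4 probes). That count was 0 without replicate 1 in hypoxia or in normoxia, 69 without replicate 2 in hypoxia and 1696 without replicate 2 in normoxia. Krt17 had a log2 fold change of 0.60 ± 0.19 (SE, hypoxia over normoxia) with an unadjusted p of 0.010 and an adjusted p of 0.49, and it was the only 1 of the 3 with an unadjusted p under 0.05. Krt10 had a log2 fold change of 0.42, with 0.86 within slide 1 and -0.02 within slide 2, and it passed the test only without replicate 2 of the ATF2 mutant with 4-OHT in normoxia (0.69, adjusted p = 0.049). Itgb4 had a log2 fold change of 0.21 (95% interval -0.31 to 0.74).

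In the ATF2 mutant without 4-OHT, Krt17 and Itgb4 fell in hypoxia, where 12.3% of all probes passed the test. Krt17 was 3.22-fold lower in hypoxia than in normoxia (log2 fold change -1.69 ± 0.19 SE, adjusted p = 0.00020), with -1.83 within slide 1 and -1.54 within slide 2, its hypoxia level being above background on 1 of 2 arrays. With the detection p-values as deposited Krt17 did not pass (-0.34, adjusted p = 0.13). Itgb4 had a log2 fold change of -2.68 ± 0.24 (SE, adjusted p = 3.1e-05) and was at least 5.26-fold lower. The summed level of the 3 fibroblast markers was 686 and 713 units in hypoxia and 839 and 863 units in normoxia. Of these, Col5a1 had a log2 fold change of -0.07 (limma, adjusted p = 0.85). Col6a1 was at least 2.61-fold lower (adjusted p = 9.9e-05) and Dcn at least 1.48-fold lower (adjusted p = 0.0030). Both were above background on 2 of 2 arrays in normoxia and 0 of 2 in hypoxia. Schwann cells also make integrin beta4, and 2 of 6 named Schwann cell markers (Pmp22 and S100b) were above background on some array. Their sum was 850 and 1123 units in hypoxia and 2328 and 3364 units in normoxia. S100b was above background on 0 of 2 arrays in both of these groups. Pmp22 had a log2 fold change of -1.54 (limma, adjusted p = 0.076) and did not pass the test. The part of these markers was not tested. Krt10 had a log2 fold change of -0.16 (95% interval -0.61 to 0.29).

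In WT cultures Krt17 was the only 1 of the 3 genes past the threshold, against 10.2% of all probes. It was 2.02-fold higher in hypoxia than in normoxia (log2 fold change 1.02 ± 0.19 SE, adjusted p = 0.012), by 0.92 within slide 1 and 1.11 within slide 2. Its call was lost without any of the 4 WT arrays (log2 fold changes 0.92 without replicate 1 and 1.11 without replicate 2 in hypoxia, 1.21 without replicate 1 and 0.83 without replicate 2 in normoxia, adjusted p up to 0.12). Itgb4 had a log2 fold change of 0.63 ± 0.24 (SE) and an adjusted p of 0.12. It passed the test without either array of the ATF2 mutant with 4-OHT in normoxia (adjusted p = 0.032) and in a fit to the 4 WT arrays alone (adjusted p = 0.012). Krt10 had a log2 fold change of -0.15 (95% interval -0.60 to 0.30).

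These responses were set against each other in the same fit. Between the ATF2 mutant with 4-OHT and WT, 0 of the 3 genes differed in their response by limma, 0 had an unadjusted p under 0.05, and 0.409% of all probes passed. The differences were 0.57 for Krt10 (95% interval -0.07 to 1.21), -0.42 for Krt17 (-1.02 to 0.18) and -0.42 for Itgb4 (-1.16 to 0.33). Between the ATF2 mutant with and without 4-OHT, where 5.17% of all probes passed, the response of Krt17 differed by 2.28 ± 0.27 and that of Itgb4 by 2.90 ± 0.34 (log2, SE; adjusted p = 0.00045 and 0.00037). Both calls were lost with the detection p-values as deposited (0.67, adjusted p = 0.079 for Krt17 and 0.91, adjusted p = 0.078 for Itgb4). The difference of Krt10 was 0.58 (adjusted p = 0.32), and it passed the test only without replicate 2 of the ATF2 mutant with 4-OHT in normoxia (0.85, adjusted p = 0.048). Between the ATF2 mutant without 4-OHT and WT, where 11.8% passed, Krt17 differed by -2.70 ± 0.27 and Itgb4 by -3.31 ± 0.34 (log2, SE; adjusted p = 0.00014 and 0.00015), and Krt10 by -0.01. In both sets of differences the hypoxia level of the ATF2 mutant without 4-OHT was above background on 0 of 2 arrays for Itgb4 and 1 of 2 for Krt17, so their sizes are fitted values that rest on levels near background.

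Of the hemidesmosome genes, only Itgb4 passed the test for the hypoxia response of the ATF2 mutant without 4-OHT. The list holds 9 genes, of which 6 could be named and 5 were above background on some array (Itgb4, Itga6, Plec, Dst and Cd151). Itga6, whose product pairs with integrin beta4, had 141 and 243 units in the ATF2 mutant without 4-OHT in hypoxia and 153 and 301 units in normoxia, a log2 fold change of -0.20 with an adjusted p of 0.67. These Itga6 arrays overlap, whereas Itgb4 was not above background in hypoxia. Of the list, 1 gene fell and 4 did not pass the test in this comparison, in which 12.3% of all probes passed, and the median log2 fold change was -0.20, against 0.04 over all probes.

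Against WT in normoxia, Itga6 was higher in mutant cultures with and without 4-OHT, as was Itgb4. It had 164 and 181 units in the ATF2 mutant with 4-OHT, 153 and 301 units in the ATF2 mutant without 4-OHT and 53.5 and 88.7 units in WT. The log2 fold change of Itga6 was 1.45 ± 0.23 (SE, adjusted p = 0.0015) with 4-OHT and 1.78 ± 0.23 (SE, adjusted p = 0.00041) without it. In both comparisons 2 of the 5 hemidesmosome genes rose and 3 did not pass, where 22.8% (with 4-OHT) and 14.3% (without it) of all probes passed. The list medians were 0.67 with 4-OHT and 0.58 without it, against -0.03 and -0.06 over all probes. With 4-OHT the list median was 1.32 within slide 1 and 0.03 within slide 2. Without 4-OHT it was 0.90 within slide 1 and 0.27 within slide 2. Plec, which encodes plectin, ranged from 2254 to 5664 units over the 12 arrays, and its log2 fold change against WT in normoxia was 0.67 with 4-OHT (adjusted p = 0.16) and 0.58 without it (adjusted p = 0.28).

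The ATF2 mutant with 4-OHT in hypoxia, compared with the same cultures without 4-OHT, had 2 hemidesmosome genes higher, 1 lower and 2 that did not pass, where 28.6% of all probes passed. Besides Itgb4, Plec was higher by 0.96 ± 0.32 (log2, SE; adjusted p = 0.048), and Dst, which encodes dystonin and links filaments to the hemidesmosome, fell by 0.74 (adjusted p = 0.020). Itga6 had a log2 fold change of -0.21 (adjusted p = 0.54). The median of the list was -0.15, against -0.02 over all probes.

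Other epithelial genes were seldom above background. Of 19 genes of desmosomes and epithelial adherens junctions 11 could be named, and 3 (Jup, Cldn4 and Pkp2) had a probe above background. Jup, which encodes the junction protein plakoglobin, had 69.4 and 100 units in the ATF2 mutant without 4-OHT in hypoxia and 154 and 239 units in normoxia, with a log2 fold change of -1.34 ± 0.20 (SE, adjusted p = 0.0013). It was the only 1 of the 3 past the test in this comparison, in which 12.3% of all probes passed. Jup is also known from heart muscle, and the part of muscle in this result was not tested. Cldn4, a claudin of tight junctions, had a log2 fold change of -0.79 (adjusted p = 0.077). Pkp2, a plakophilin of desmosomes, had 90.0 and 138 units in the ATF2 mutant without 4-OHT in hypoxia and 104 and 106 units in normoxia, which overlap. Pkp2 exceeded background in 8 of 8 mutant but 0 of 4 WT arrays, and was at least 1.80-fold higher in normoxia with 4-OHT than in WT (adjusted p = 0.0026).

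Of 19 genes of suprabasal keratinocytes and the cornified envelope 5 could be named, and Krt10 and Sprr2a1 were above background on some array. Sprr2a1, a small proline-rich envelope protein, was higher in hypoxia in the mutant with 4-OHT than without it (log2 fold change 1.28 ± 0.20 SE, adjusted p = 0.00093, at least 1.48-fold), and it was above background on 6 of 12 arrays. Krt17 was the only 1 of 3 named keratins of injury and appendages above background. Of 16 transcription factors of the epidermis 10 could be named and 5 were above background on some array. In normoxia 1 of these rose and 1 fell in the ATF2 mutant with 4-OHT against WT, and 2 rose and 1 fell in the ATF2 mutant without 4-OHT against WT, where 22.8% (with 4-OHT) and 14.3% (without it) of all probes passed. Tfap2b, a factor of the AP-2 family, had 229 and 312 units in the ATF2 mutant with 4-OHT, 275 and 489.6 units in the ATF2 mutant without 4-OHT and 770.1 and 1012 units in WT, all in normoxia. It fell by 1.92 with 4-OHT and by 1.48 without it (log2, adjusted p = 4.1e-05 and 0.00026). A second Tfap2b probe, also above background on 12 of 12 arrays, ranged from 216 to 770 units. Klf4, a factor of suprabasal keratinocytes, was higher by 0.75 without 4-OHT. Its 3 probes were above background on 6, 1 and 0 of 12 arrays and reached at most 76.2 units. Klf5, a zinc finger factor of basal keratinocytes, had 601 and 501 units in the ATF2 mutant with 4-OHT, 719 and 942 units in the ATF2 mutant without 4-OHT and 157 and 210 units in WT, all in normoxia. Its log2 fold change against WT was 1.60 ± 0.19 with 4-OHT and 2.16 ± 0.19 without it (SE, adjusted p = 0.00027 and 2.8e-05). Klf5 rose in hypoxia in WT (0.93, adjusted p = 0.016) and fell by 0.90 in the ATF2 mutant without 4-OHT (adjusted p = 0.012).

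**Figure D4:**
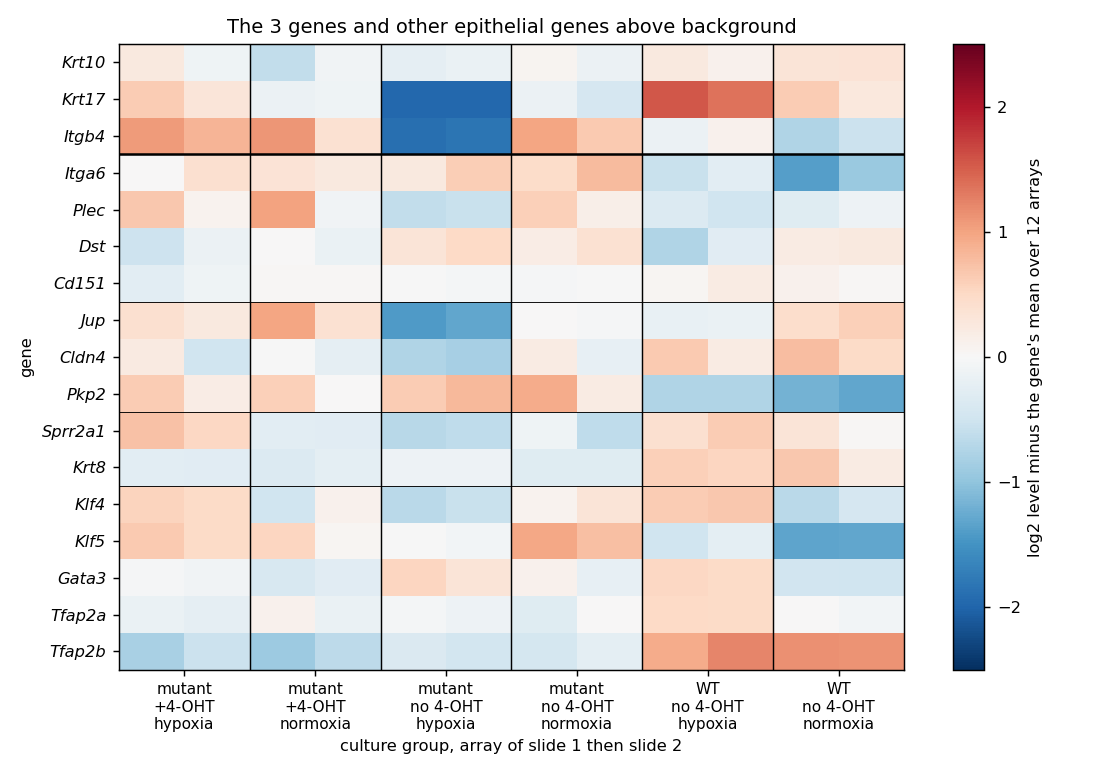
Log2 level minus the gene's mean over the 12 arrays (colour) for Krt10, Krt17 and Itgb4 (top rows) and 14 other epithelial genes above background on at least 1 array (rows), by culture group (columns, the array of slide 1 before that of slide 2). The ATF2 mutant without 4-OHT in hypoxia has the lowest mean of the 6 groups for Krt17, Itgb4, Jup, Cldn4, Sprr2a1, Plec and Klf4, and not for Krt10 or the other 9 genes.

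The 3 genes did not follow a common pattern. Over the 12 arrays, which share groups and slides, Pearson's r of the log2 levels was 0.54 between Krt17 and Itgb4, and -0.46 over the 10 arrays left without the ATF2 mutant without 4-OHT in hypoxia. It was 0.55 between Krt10 and Krt17 (0.54 without those arrays) and -0.09 between Krt10 and Itgb4 (-0.65 without them). Among 3326 named genes above background on at least 6 arrays, those with the levels most like Itgb4 were Aldh3b1 (r = 0.987), Dnajc6 (0.975), Gja5 (0.970), Serpinf1 (0.961) and Ncam1 (0.959). Those most like Krt17 were Cfap410 (r = 0.940), Mylk (0.940), Rhpn1 (0.931), Smox (0.928) and Rassf4 (0.924). Those most like Krt10 were Fcf1 (r = 0.970), Mea1 (0.952), Ephb4 (0.926), Psmb5 (0.918) and Ifitm2 (0.916). These values rank genes by likeness over 12 arrays in 6 groups. By rank order, Spearman's rho with Krt17 was 0.916 for Cfap410, 0.937 for Mylk, 0.783 for Rhpn1, 0.874 for Smox and 0.685 for Rassf4. It was 0.916 to 0.979 for the genes named for Itgb4 and 0.874 to 0.944 for those named for Krt10. Likeness was not recomputed without the ATF2 mutant without 4-OHT in hypoxia, where Krt17 and Itgb4 were lowest.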

How the data were processed

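RNA of primary melanocytes was hybridised to 12 arrays on Illumina Mouse-6 BeadChips, and the authors derived bead intensities and detection p-values in BeadStudio. The deposited non-normalized intensities are on a linear scale. A further deposited set, background-subtracted and cubic spline normalized by the authors, holds intensities and was used only as an alternative, with values under 16 set to 16. Groups follow the labels.

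The members and gene lists were chosen with earlier results of these data known. The number after scl0 in a probe's identifier was read as NCBI gene number. The RefSeq table held 82.6% of 11857 such numbers, and 46.0% when 1 was added to each. Every probe of the 3 genes is reported. Each list is given by counts over genes with a probe above background on at least 1 array, and by name come Itga6, the keratin partners and the members past the test, at most 4 by size. The values of Plec, Pkp2 and Cldn4 that did not pass were picked with values known.

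Intensities were normalised by neqc (limma 3.58.1, R 4.3.3) with an offset of 16, which corrects for background, quantile normalizes and gives log2 values. For 5 bright probes a detection p above 0 but under 0.5 of a step (1 in 1603) was set to 0, since these widened the background SD to 100 to 178 units, against 5.86 to 7.00. Besides 28 control probes, probes never above background were left out. Each comparison was a contrast in 1 limma fit with 6 residual degrees of freedom. The fit was tested on simulated data of this design with errors drawn independently for each array. That test therefore does not cover any dependence between arrays of a slide. Same-numbered arrays share a slide by their labels, and their deviations correlated from -0.22 to 0.60 (median 0.20, 12 of 15 pairs over 0.1). Alternatives were other background estimates, the authors' values, an offset of 50, other filters, the slide as a block, fits to the compared arrays and leaving out each array, and, chosen after seeing the data, both arrays of the ATF2 mutant without 4-OHT in hypoxia. The number of arrays limits the precision. Figures were made with Python 3.11.15 and matplotlib 3.10.9.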

Additional observations from a re-analysis of the deposited data

Results flagged for a closer look

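The hypoxia response differed between kinds of culture by the test of the difference itself in 4 cases, 2 for Krt17 and 2 for Itgb4. These cases share the 2 arrays of the ATF2 mutant without 4-OHT in hypoxia and are not independent of each other. For Krt17 the response of the ATF2 mutant with 4-OHT minus that without 4-OHT was 2.28 on the log2 scale (limma, adjusted p = 0.00045), and for Itgb4 it was 2.90 (adjusted p = 0.00037). Of all probes 5.17% passed that test. The response of the ATF2 mutant without 4-OHT minus that of WT was -2.70 for Krt17 (adjusted p = 0.00014) and -3.31 for Itgb4 (adjusted p = 0.00015), where 11.8% of all probes passed. Within each slide the 4 differences had the same direction. With the detection p-values as deposited, the difference between mutant cultures with and without 4-OHT was 0.67 for Krt17 (adjusted p = 0.079) and 0.91 for Itgb4 (adjusted p = 0.078), and neither passed. All 4 use the ATF2 mutant without 4-OHT in hypoxia, where Itgb4 was not above background on either array, Krt17 on 1 of 2, and the summed muscle markers were at 301 units, against 7117 and 7338 in the same cultures in normoxia. Whether those arrays hold the culture that their labels name was not tested.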

How the results depend on the processing

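No direction of a called value reversed under any alternative. With the detection p-values as deposited, 8 calls were lost: Krt10 (-0.12) in the ATF2 mutant with 4-OHT against WT in normoxia, Itgb4 (0.54) in that comparison in hypoxia, Krt17 (-0.38) and Itgb4 (0.62) in the ATF2 mutant without 4-OHT against WT in normoxia and Itgb4 (-0.34) in hypoxia, the hypoxia response of Krt17 (-0.34) in the ATF2 mutant without 4-OHT, and the difference of the responses of the ATF2 mutant with and without 4-OHT for Krt17 (0.67) and Itgb4 (0.91), all as log2 fold changes. Without a filter on detection 3 were lost at the same values by the larger number of probes tested, Krt10 (-0.69) in the ATF2 mutant with 4-OHT against WT in normoxia, Itgb4 (0.97) in hypoxia, and Krt17 (-0.73) in the ATF2 mutant without 4-OHT against WT in normoxia. In fits to the compared arrays Krt10 (-0.69) and Itgb4 (1.39) were lost in the ATF2 mutant with 4-OHT against WT in normoxia, and Krt10 (-0.37) in the ATF2 mutant without 4-OHT against WT in hypoxia and the WT response of Itgb4 (0.63) passed. Krt17 in the ATF2 mutant with 4-OHT against WT in normoxia passed without background correction (-0.52), with an offset of 50 (-0.48) and with the slide as replicate block (-0.57). The replicate block changed no other call. An alternative chosen after seeing the data left out the ATF2 mutant without 4-OHT in hypoxia and lost Krt10 (-0.69) with 4-OHT against WT and Krt17 (-0.73) without 4-OHT against WT, both in normoxia. The authors' normalized values and detection on both arrays of a group changed 0 of 36 calls. Where not stated otherwise the cause was not tested.

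Leaving out each array in turn, log2 fold changes ranged from -0.96 to -0.42 for Krt10 and from -0.76 to -0.38 for Krt17 in the ATF2 mutant with 4-OHT against WT in normoxia, from -1.15 to -0.84 for Krt17 and 0.85 to 1.09 for Itgb4 in hypoxia, and from -0.92 to -0.54 for Krt17 in the ATF2 mutant without 4-OHT against WT in normoxia. Hypoxia responses ranged from 0.15 to 0.69 for Krt10 in the ATF2 mutant with 4-OHT, from 0.83 to 1.21 for Krt17 and 0.51 to 0.75 for Itgb4 in WT, and the difference of the responses of Krt10 in the ATF2 mutant with and without 4-OHT from 0.31 to 0.85. A lone array was assumed to vary like the other groups. The 6 calls of Krt17 and Itgb4 in comparisons with the ATF2 mutant without 4-OHT in hypoxia were kept in every such refit, with adjusted p up to 0.0072.

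Counts of probes called moved by over 1.5 times as follows. In fits to the compared arrays they were 1113 (3404 in the full fit) for the ATF2 mutant with 4-OHT against WT in normoxia, 1 (892) for the ATF2 mutant with against without 4-OHT in normoxia, 6722 (3698) for the ATF2 mutant without 4-OHT against WT in hypoxia, 0 (4) and 5199 (1515) for the hypoxia response with 4-OHT and in WT, and for differences of responses 0 (61) for the ATF2 mutant with 4-OHT minus WT, 390 (771) for the mutant with minus without 4-OHT and 4133 (1758) for the mutant without 4-OHT minus WT. The count of 892 was 567 with the detection p-values as deposited and 393 without the ATF2 mutant without 4-OHT in hypoxia, which also moved 1515 to 869. The count of 4 was 8 without a filter. The count of 61 was 168, 129, 108, 93 and 0 with detection p-values as deposited, the authors' values, no filter, the replicate block and without that group. Leaving out an array, counts ranged from 1377 to 5322 (normoxia) and 942 to 2630 (hypoxia) for the ATF2 mutant with 4-OHT against WT, 50 to 2966 and 2374 to 5493 for the mutant with against without 4-OHT, and 921 to 3278 and 1723 to 5006 for the mutant without 4-OHT against WT. They ranged from 0 to 1696, 750 to 2728 and 120 to 2792 for the hypoxia response with 4-OHT, without it and in WT, and for differences of responses from 0 to 1532 (with 4-OHT minus WT), 403 to 2173 (with minus without 4-OHT) and 837 to 2858 (without 4-OHT minus WT).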
